A study of Mus musculus with 6 samples.

Results

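The genes described here encode the TGF-beta ligands, their receptors and latent TGF-beta binding proteins, called latency proteins here. The 10 members were taken by symbol, 1 probe set each, from 22180 genes measured on Affymetrix arrays in 2 lines of cultured mouse melanocytes, the pigment cells of the skin. The ligand genes are Tgfb1, Tgfb2 and Tgfb3, the receptor and co-receptor genes are Tgfbr1, Tgfbr2, Tgfbr3 and Eng, and the genes of latency proteins are Ltbp1, Ltbp2 and Ltbp3. The line called wild type, melan-Ink4a-Arf-1 (wild type at Sox10), came from Cdkn2a tm1RDp/tm1RDp mice. The other line, called heterozygous here, carries Sox10LacZ/+ on an Ink4a-Arf null background and came from mice 3 days old. The loss of Ink4a-Arf (Cdkn2a), known to let melanocytes grow without senescence, is therefore labelled for both lines, as are the C57BL/6J backcross and a medium with 10% serum, 200 nM of the phorbol ester 12-O-tetradecanoylphorbol 13-acetate and 200 pM of cholera toxin. Each line was measured on 3 arrays. Each genotype is 1 cell line, so genotype and line cannot be told apart, and nothing in the labels says that the arrays are separate cultures, so p-values reflect only how far these 6 arrays spread.

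TGF-beta is made as a precursor whose prodomain stays wrapped around the mature ligand after cleavage. Latent TGF-beta binding proteins tie this complex to the extracellular matrix, and integrins, proteases or thrombospondin release the ligand from it. The free ligand joins the type II receptor, encoded by Tgfbr2, to the type I receptor, encoded by Tgfbr1, whose kinase phosphorylates the SMAD proteins that enter the nucleus. Co-receptors present the ligand: betaglycan, the product of Tgfbr3, is known for binding TGF-beta 2, which by itself has low affinity for the type II receptor, and endoglin, the product of Eng, is best known from endothelial cells. In pigment cells TGF-beta is known as an inhibitor of growth and of pigment gene expression, and in hair follicles it takes part in keeping melanocyte stem cells quiescent.

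All values are signals on the log2 scale, so that a difference of 1 is 2-fold. Array medians ran from 5.72 to 5.78, and wild-type replicate 2 stood apart, where 261 genes (1.18% of all) lay at least 2-fold off the average of replicates 1 and 3, while no other array had more than 54 such genes. Sox10, the targeted gene, had a signal of 9.91 ± 0.10 in the wild-type and 9.73 ± 0.05 in the heterozygous line (mean ± SD, n = 3 each). Its difference of −0.18 did not pass (limma, adjusted p 0.213), and the sources used here do not say which part of the transcript its probes cover. The targeted Cdkn2a had a signal of 7.16 ± 0.12 in the wild-type and 7.07 ± 0.08 in the heterozygous line (n = 3 each), at the 69.1st and 68.3rd percentile among probe sets, and its difference of −0.09 did not pass (adjusted p 0.61). Whether its probes lie in the deleted part is not stated in the labels, so this signal does not check the deletion. Of 12 melanocyte markers 0 were dim in both lines, where dim means under the 40th percentile of probe sets. Ednrb in the heterozygous line (5.26) and Trpm1 in the wild type (5.37) lay just above that limit of 5.20.

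The question here is whether the 2 lines differ in the genes that make, hold and receive TGF-beta. In the heterozygous line, 6 of the 10 genes were higher and 0 lower at an adjusted p below 0.05 (limma across all genes, Benjamini-Hochberg). Of all genes tested, 7.46% were higher and 5.92% lower by the same rule. The 6 were the ligand genes Tgfb2 and Tgfb3, the receptor genes Tgfbr1 and Tgfbr2, the co-receptor gene Eng and the latency gene Ltbp1. Of these, 5 differed at least 2-fold, against 1.94% of all genes higher and 1.59% lower by that rule, and Tgfbr1 was just under it. The heterozygous arrays all lay above the wild-type arrays in the same 6 genes (17% of all genes) and all below them in Tgfb1, Tgfbr3 and Ltbp3 (14.6% of all genes), and only in Ltbp2 did they overlap. The median difference over the 10 genes was 0.96, beside 0.001 over all genes. In cultured cells measured in bulk, a change in the share of cells that express a gene and a change in RNA per cell cannot be told apart.

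**Figure D1:**
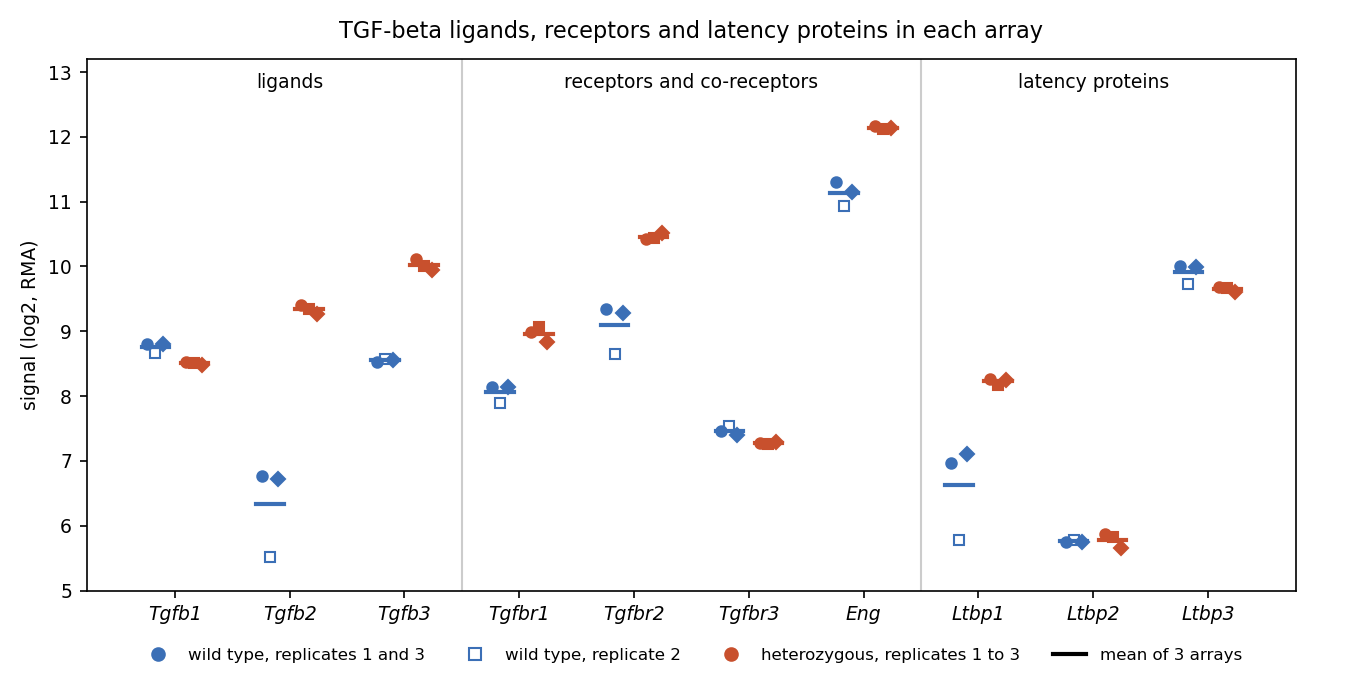
Signal of each of the 10 genes (log2, y axis) in each of 6 arrays, with a line at the mean of 3 arrays per melanocyte line; blue is wild type, with replicate 2 as an open square, and orange is heterozygous. The widest gap is that of Tgfb2, at 6.34 against 9.34, and the open squares of Tgfb2 and Ltbp1 lie far below the other wild-type arrays.

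Promoter sequence from RefSeq (build GRCm38.p6) was at hand for 8 of the 10 genes, in 10 windows of 250 bases that end just before an annotated start of transcription. None was at hand for Tgfb3, which was higher in the heterozygous line, and for Tgfbr3, which did not pass. Those of Tgfb2, Tgfbr2 and Ltbp1 are shown because these are the ligand, receptor and latency genes with the largest differences, and that of Tgfb1 because it is the ligand gene that did not rise. They lie at chr1:186705990-186706239 (minus strand), chr9:116175364-116175613 (minus strand), chr17:75005279-75005528 (plus strand) and chr7:25686752-25687001 (plus strand). Capitals mark matches, on either strand, to CAGAC (the core bound by SMAD proteins), TGACGTCA (cyclic AMP response element) and CACGTG (E-box). The Tgfb2 and Ltbp1 windows lie inside or across the span of other annotated transcripts of their genes, so other starts exist.
Tgfb2: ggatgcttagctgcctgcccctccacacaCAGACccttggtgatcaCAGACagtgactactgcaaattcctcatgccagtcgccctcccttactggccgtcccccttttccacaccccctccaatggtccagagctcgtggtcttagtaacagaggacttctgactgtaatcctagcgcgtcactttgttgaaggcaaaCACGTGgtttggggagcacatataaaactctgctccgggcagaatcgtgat
Tgfbr2: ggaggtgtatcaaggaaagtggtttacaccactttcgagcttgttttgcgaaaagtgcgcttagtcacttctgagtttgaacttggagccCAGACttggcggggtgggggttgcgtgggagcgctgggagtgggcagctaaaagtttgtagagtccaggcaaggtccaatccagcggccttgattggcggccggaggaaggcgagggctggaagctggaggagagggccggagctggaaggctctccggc
Ltbp1: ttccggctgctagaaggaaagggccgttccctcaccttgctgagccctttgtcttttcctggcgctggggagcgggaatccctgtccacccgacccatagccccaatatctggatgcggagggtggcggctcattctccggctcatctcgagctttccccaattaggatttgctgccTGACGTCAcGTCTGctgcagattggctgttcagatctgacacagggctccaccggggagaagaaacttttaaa
Tgfb1: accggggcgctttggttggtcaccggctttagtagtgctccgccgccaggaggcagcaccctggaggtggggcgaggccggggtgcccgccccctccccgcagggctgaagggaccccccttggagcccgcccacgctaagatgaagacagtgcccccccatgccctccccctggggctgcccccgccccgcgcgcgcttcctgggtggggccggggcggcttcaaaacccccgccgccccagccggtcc

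CAGAC was found in 8 of the 10 windows, in 6 of the 7 windows of genes that rose and in those of Ltbp2 and Ltbp3. Tgfbr1 and Ltbp1 count with 2 windows each, and CAGAC was in the second Tgfbr1 window and in both Ltbp1 windows. The Tgfb1 window, with 75.2% G and C, and the first of 2 Tgfbr1 windows, with 74.8%, held none. Of all 32851 promoter windows of the same length, 42.2% hold CAGAC. The cyclic AMP response element stood in the first Ltbp1 window, 73 bases before the start (1.55% of all windows), with CAGAC on the other strand 64 bases before it. TFAP2 motifs (GCCNNNGGC) were found in the Eng window and in the first of 2 Tgfbr1 windows, against 13.7% of all. The letters of a SOX motif (AACAAT, in 9.42% of all windows), an AP-1 site (TGANTCA, 6.75%) and an M-box (TCATGTG, 3.25%) were in 0 of the 10 windows. Looked for after the windows had been seen, an E-box and a TATA box (TATAAA) were found only in the Tgfb2 window, 51 and 31 bases before the start, against 6.02% and 12.4% of all windows. These matches describe the letters in these windows and do not show that a factor binds there.

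**Figure D2:**
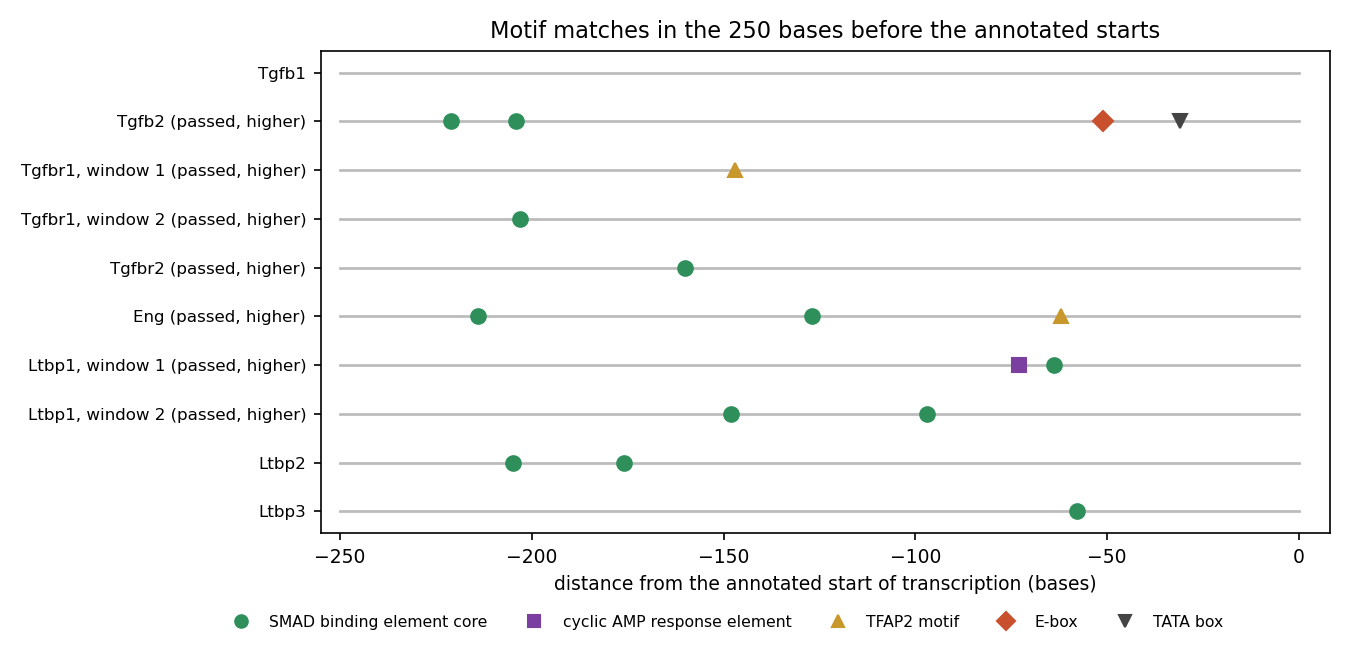
Position of motif matches on either strand (symbols, x axis in bases before the annotated start) in the 10 promoter windows of 8 genes, with genes that passed the test named as higher. The Tgfb2 window holds 2 SMAD cores, the E-box and the TATA box, and the Tgfb1 window holds no match.

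Among the ligands, Tgfb2 had the largest difference of the 10 genes. Tgfb2 encodes the ligand known from the developing neural crest, eye and heart (Entrez 21808; chromosome 1, 186622787 to 186709697). Its wild-type arrays had signals of 6.76, 5.52 and 6.72, and its heterozygous arrays 9.41, 9.35 and 9.27. Every heterozygous array was above every wild-type array, and wild-type replicate 2 was the low one. The difference was 3.01 (SE 0.30, limma adjusted p 0.000351), an 8.04-fold higher signal with a 95% confidence interval of 4.98-fold to 13.0-fold, and it ranked 99 by size among all genes. Without wild-type replicate 2 it was 2.60 (adjusted p 1.29e-06). The wild-type mean of Tgfb2 ranked at the 59.3rd and the heterozygous mean at the 88.6th percentile among probe sets, which puts even the lower group above the dim range.

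Tgfb3, the ligand gene known for its need in palate fusion (Entrez 21809; chromosome 12, 86056743 to 86079041), had 8.53, 8.57 and 8.56 in the wild type. In the heterozygous line Tgfb3 had 10.12, 10.01 and 9.94. The wild-type arrays were nearly identical, replicate 2 included. Tgfb3 rose by 1.47 (SE 0.08, adjusted p 7.58e-06), which is 2.77-fold (95% interval 2.46-fold to 3.13-fold), and by 1.48 without wild-type replicate 2.

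Tgfb1, the ligand gene most widely expressed in adult tissues (Entrez 21803; chromosome 7, 25687002 to 25705077), did not pass. Its signals were 8.81, 8.66 and 8.80 in the wild type and 8.53, 8.51 and 8.48 in the heterozygous line. The arrays did not overlap, but the difference of −0.25 (95% interval −0.42 to −0.08) did not pass (adjusted p 0.0676). Tgfb1 passed without wild-type replicate 2 (−0.30, adjusted p 0.0198), with dim genes left out (0.0412) and with array weights (0.0228), and its adjusted p ran up to 0.217 over all alternatives. Of the 3 ligand genes, 2 passed as higher and Tgfb1 did not pass in either direction.

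Both signalling receptors were higher in the heterozygous line. Tgfbr2, the gene of the receptor that binds the ligand first (Entrez 21813; chromosome 9, 116087695 to 116175363), had 9.34, 8.65 and 9.29 in the wild type and 10.42, 10.43 and 10.52 in the heterozygous arrays. Wild-type replicate 2 was again low, and the lines did not overlap. Tgfbr2 rose by 1.36 (SE 0.17, adjusted p 0.00137), or 2.57-fold (95% interval 1.95-fold to 3.39-fold), and by 1.14 without wild-type replicate 2 (adjusted p 5.03e-05). Its promoter window, printed above, held 1 SMAD core, 160 bases before the start.

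Tgfbr1, the gene of the receptor whose kinase phosphorylates SMAD2 and SMAD3 (Entrez 21812; chromosome 4, 47353222 to 47414926), had 8.14, 7.90 and 8.15 in the wild type. The heterozygous arrays had 8.996, 9.07 and 8.83. Tgfbr1 rose by 0.90 (SE 0.10, adjusted p 0.000652), or 1.87-fold (95% interval 1.59-fold to 2.20-fold), so that its interval spans 2-fold. The 95% intervals of Tgfbr1 (0.67 to 1.14) and Tgfbr2 (0.96 to 1.76) overlap, and their difference from each other was not tested.

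The co-receptors differed. Eng (Entrez 13805; chromosome 2, 32646595 to 32682669) had 11.30, 10.93 and 11.15 in the wild type and 12.18, 12.11 and 12.13 in the heterozygous line. It was bright in both, at the 97.4th and 99.4th percentile among probe sets. Eng rose by 1.01 (SE 0.10, adjusted p 0.000355), or 2.02-fold, and by 0.92, just under 2-fold, without wild-type replicate 2. Tgfbr3 (Entrez 21814; chromosome 5, 107106567 to 107289629) had 7.46, 7.54 and 7.41 in the wild type and 7.28, 7.27 and 7.29 in the heterozygous line. The arrays of Tgfbr3 did not overlap, but its difference of −0.19 (95% interval −0.35 to −0.03) did not pass (adjusted p 0.137; 0.0831 to 0.315 over the alternatives).

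Among the latent TGF-beta binding proteins, Ltbp1, whose protein is known for binding the latent complex of all ligands (Entrez 268977; chromosome 17, 75005480 to 75392512), was higher in the heterozygous line. Its signals were 6.97, 5.78 and 7.11 in the wild type and 8.26, 8.17 and 8.25 in the heterozygous line. As in Tgfb2, wild-type replicate 2 was more than 2-fold below the other wild-type arrays, here by 1.26, and the lines did not overlap. Ltbp1 rose by 1.60 (SE 0.31, adjusted p 0.0115), or 3.04-fold (95% interval 1.85-fold to 4.98-fold). Without wild-type replicate 2 the difference was smaller, 1.18, with an adjusted p of 6.43e-05, and without heterozygous replicate 1 the adjusted p reached 0.0484, its highest value.

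Ltbp3 (Entrez 16998; chromosome 19, 5740900 to 5758536), known for its role in bone and tooth, had 10.01, 9.73 and 9.99 in the wild type and 9.68, 9.67 and 9.61 in the heterozygous line. It was brighter than Ltbp1 in both lines, at the 92.3rd and 90.8th percentile among probe sets. Its difference of −0.26 (95% interval −0.47 to −0.05) did not pass (adjusted p 0.118), although the arrays did not overlap. It passed without wild-type replicate 2 (−0.35, adjusted p 0.0118) and with array weights (0.024). Ltbp2, which is known to bind fibrillin but not latent TGF-beta (Entrez 16997; chromosome 12, 84783212 to 84876558), had 5.74, 5.78 and 5.75 in the wild type and 5.88, 5.83 and 5.65 in the heterozygous line. The lines overlapped, with a difference of 0.03 (95% interval −0.16 to 0.22, adjusted p 0.882), and the signal stood at the 50.1st percentile among probe sets in the wild type.

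**Figure D3:**
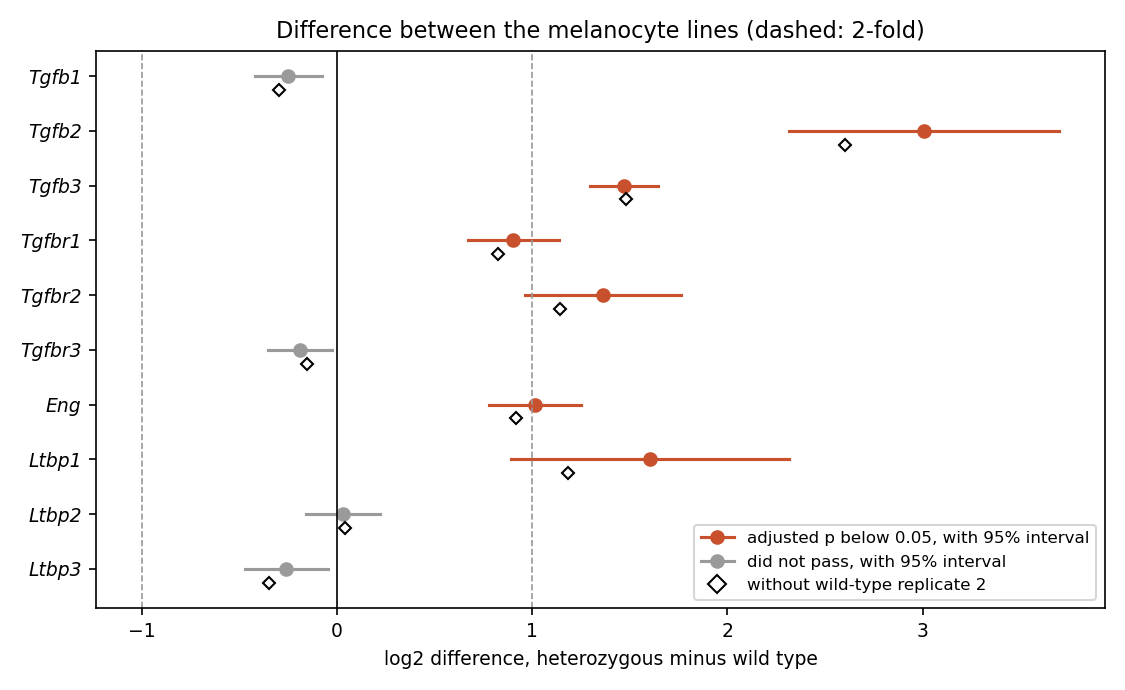
Log2 difference between the lines (x axis, heterozygous minus wild type) for the 10 genes, with the 95% confidence interval of the limma fit; orange passed the test, grey did not, and open diamonds give the difference without wild-type replicate 2. All 6 orange intervals lie above 0, and the diamonds of Tgfb2, Tgfbr2 and Ltbp1 shift to the left of the point, to 2.60, 1.14 and 1.18.

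The pattern over 6 arrays most like that of Tgfb2, by the root mean square distance between values centred on each gene's mean, was that of Frzb, a secreted Wnt antagonist gene (distance 0.10). Adam19, a membrane metalloprotease gene (0.11), and Nbea, a neuronal trafficking protein gene (0.15), followed. Frzb differed by 2.98, Adam19 by 2.88 and Nbea by 3.26 between the lines. In each of these genes wild-type replicate 2 was also below the other wild-type arrays, by 1.35, 0.999 and 0.98, as it was by 1.22 in Tgfb2. These genes were chosen for their likeness over all 6 arrays, so the choice fixes both the size of the difference and the low value in that array.

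Genes that act next to the ligands outside the cell moved in both directions. Of 21 measured activators, matrix anchors and TGF-beta binding proteins, 8 rose, 4 fell and 9 did not pass, with a median difference of 0.07. By the same rule, 7.46% of all genes were higher and 5.92% lower. Dcn, the gene of the TGF-beta binding proteoglycan decorin, rose by 5.92 (SE 0.08), from 4.88 ± 0.11 to 10.80 ± 0.04 (SD, n = 3 each), and Cd109, the gene of a TGF-beta co-receptor known to inhibit signalling, by 2.56 (SE 0.10). The wild-type mean of Dcn was dim, at the 33.9th percentile among probe sets, so the size of its rise is less certain than its direction. Itgb8 and Thbs1 code for an integrin chain and a thrombospondin that activate latent TGF-beta. They rose by 1.57 (SE 0.08) and 1.38 (SE 0.14). The integrin chain genes Itgb3 (−0.48, adjusted p 0.0097) and Itgav (−0.37, adjusted p 0.0196), named after their values were seen, fell. Itgb5 (0.07) and Itgb6 (0.06, dim in both lines) did not pass. Ltbp4, a further latent TGF-beta binding protein gene, fell by 1.47 (SE 0.12, adjusted p 0.000108), from 8.86 ± 0.23 to 7.39 ± 0.05, the opposite direction to Ltbp1. Without wild-type replicate 2 the counts were again 8 higher and 4 lower. With the mean of each gene's probe sets they were 8 higher and 2 lower. Of the genes that fell, only Itgav and Fmod (−0.60, adjusted p 0.00634) had 2 probe sets. Their values here are those of the brighter one, so both falls hang on that choice.

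Inside the cell, 6 of 20 transducers and inhibitors rose, 1 fell and 13 did not pass, with a median of 0.10. Over all genes the shares were 7.46% higher and 5.92% lower. The largest rises were those of the inhibitory SMAD genes Smad6 (1.09, SE 0.07) and Smad7 (0.97, SE 0.12), both known as feedback inhibitors. Tgif1 (0.50) and Skil (0.49), genes of nuclear repressors of SMAD activity, and the receptor-regulated SMAD gene Smad3 (0.47, SE 0.07) rose less. Smad2 and Smad4, named after their values were seen, differed by −0.02 and 0.10 and did not pass. Smurf2 (0.31, adjusted p 0.0235) also rose, and Nedd4l (−0.39, adjusted p 0.0156) was the gene that fell. Bambi (−0.35), Ldlrad4 (−0.14) and Pmepa1 (0.10) of the same list did not pass. The count dropped from 7 to 4 without heterozygous replicate 1 or 2, where Skil no longer passed (adjusted p 0.065 and 0.0566; 0.0075 to 0.065 over all alternatives).

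Of 24 measured genes known to respond to TGF-beta, 10 rose, 1 fell and 13 did not pass, with a median of 0.39. Over all genes the shares were 7.46% higher and 5.92% lower. Acta2 (smooth muscle actin) rose by 5.34 (SE 0.11), Ccn2 (a matricellular protein gene) by 3.88 (SE 0.13), Col1a2 (a type I collagen chain) by 1.24 (SE 0.09), Nox4 (an NADPH oxidase) by 1.20 (SE 0.10) and Tgfbi, a secreted matrix protein gene named for its induction by TGF-beta, by 1.08 (SE 0.09). Col1a2 also had a second probe set, with a larger difference (2.49). Ccn2 had a second, dimmer probe set, which differed by only 0.46 and did not pass (adjusted p 0.187). The gene that fell was Cdkn1a, the gene of a cell cycle inhibitor (−0.89, SE 0.07, adjusted p 9.95e-05), named after its value was seen. With wild-type replicate 2 left out the counts were 12 higher and 3 lower.

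Ligands, receptors and inhibitors of the activin, nodal and myostatin branches were measured beside them. Among the 13 with a value, 3 were higher and 1 lower, and 9 missed the threshold, with a median of −0.03 and 0 past 2-fold. Over all genes the shares were 7.46% higher and 5.92% lower. With wild-type replicate 2 left out the counts became 3 and 3, and the activin antagonist gene Fst then differed by −1.05 (adjusted p 8.05e-05; −0.59 and 0.334 with all arrays). Acvr2a (0.57, SE 0.09) and Acvr1b (0.55, SE 0.08), activin receptor genes, and the ligand gene Gdf11 (0.52, SE 0.10) rose, and Fstl3, an activin antagonist gene, differed by −0.31 (SE 0.08, adjusted p 0.0482). The Fstl3 call was lost in 10 of 16 alternatives, among them the replicate block (adjusted p 0.111), median centring (0.0634) and each single array other than wild-type replicate 2 left out (adjusted p 0.0279 to 0.187 over all alternatives), and the count dropped from 4 to 2 without heterozygous replicate 3, where Gdf11 also missed the threshold (adjusted p 0.0501; 0.00318 to 0.0501 over all alternatives).

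**Figure D4:**
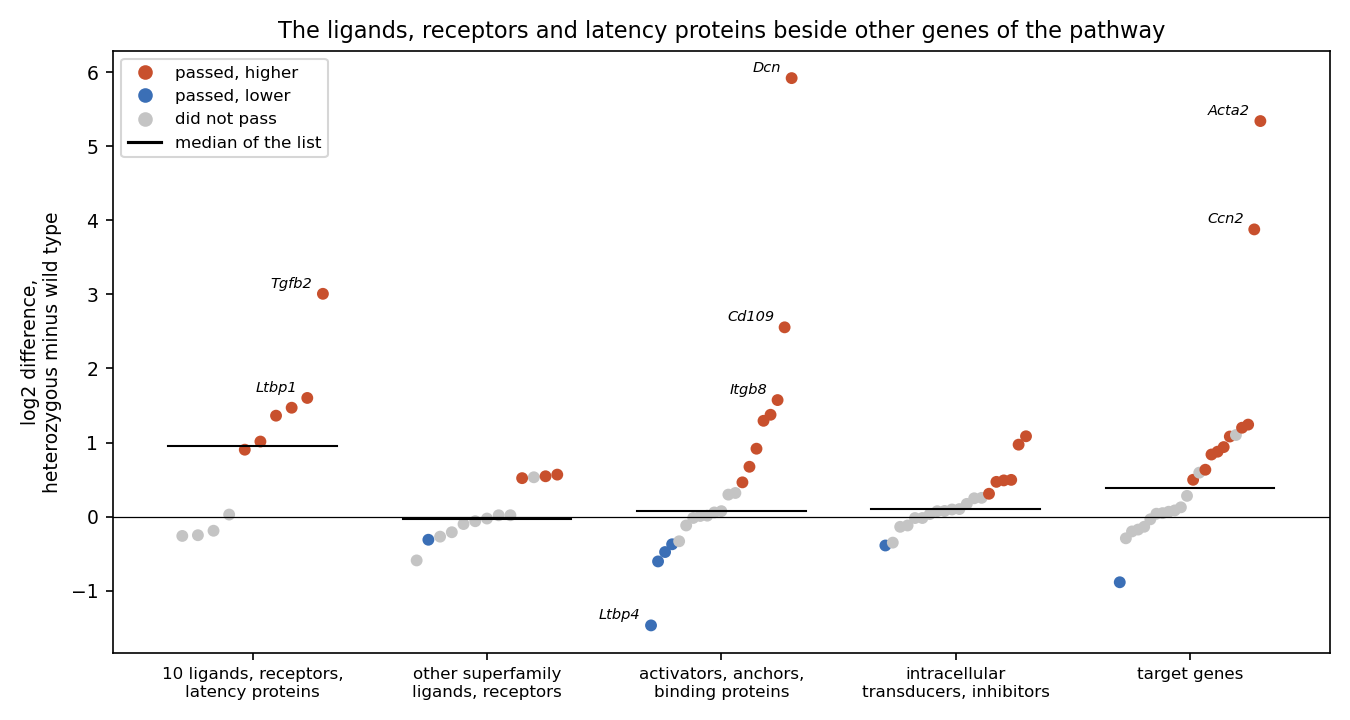
Log2 difference (y axis, heterozygous minus wild type) of every measured gene in 5 lists, ordered within each list; orange passed and is higher, blue passed and is lower, grey did not pass, and the black line is the median. The 10 ligand, receptor and latency genes have a median of 0.96, and the other lists lie between −0.03 and 0.39.

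The arrays also measured markers of other cell types. For the counts that follow, the shares over all genes were again 7.46% higher and 5.92% lower. In the fibroblast list 4 of 10 genes rose and 0 fell: Dcn, Pdgfrb (4.08), Fbln1 (3.18) and Col1a2. The mean of all 10 fibroblast markers per array ran from 5.91 to 6.02 in the wild type and from 7.38 to 7.41 in the heterozygous line, while the median difference over the 10 was 0.18. The fibroblast genes Col1a1 (−0.20), Col3a1 (0.10), Thy1 (−0.14), Pdgfra (0.15), Col6a3 (0.21) and Lum (−0.10) did not pass, and Lum was dim in both lines. Of 6 smooth muscle markers 3 rose, Acta2, Tagln (0.94) and Cnn1 (0.44), and the list mean ran from 6.37 to 6.42 in the wild type and from 7.45 to 7.58 in the heterozygous line. The median difference over these 6 was 0.29, and Des (0.14), Myh11 (−0.06) and Lmod1 (−0.10) did not pass. With heterozygous replicate 1 left out Cnn1 missed the threshold (adjusted p 0.0528, the highest of its alternatives, which start at 0.00449). Of 7 endothelial markers Eng itself and Vwf (0.38) rose, while the endothelial receptor genes Kdr and Tek were dim in both lines. Pecam1 (0.14), Cdh5 (0.23) and Tie1 (−0.08) did not pass, and the median difference over the 7 was 0.14. Vwf missed the threshold when wild-type replicate 1, heterozygous replicate 2 or heterozygous replicate 3 was left out (adjusted p 0.0683, 0.0874 and 0.0923; 0.0111 to 0.0923 over all alternatives).

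Of 5 measured keratinocyte markers 0 passed by limma, with Cdh1 at 0.38 (adjusted p 0.0632; 0.0101, its lowest value, with wild-type replicate 2 left out, and at most 0.636 in any alternative) and Krt10 at −0.15. Of 5 leukocyte markers Cd68, a lysosomal protein gene, rose (1.32), and the other 4 were dim in both lines. Among 12 melanocyte markers 3 rose and 5 fell, with 5 and 5 without wild-type replicate 2. Ednrb (−3.68), Tyr (−2.10) and Kit (2.29) differed most. Mitf and Trpm1 also rose, and Dct, Oca2 and Gpr143 also fell. Tyrp1 (−0.05), Pmel (0.22), Mlana (−0.29) and Slc45a2 (0.27) did not pass. The median difference over the 12 was −0.17. The mean of the list ran from 10.39 to 10.72 in the wild type and from 10.16 to 10.21 in the heterozygous line. The part of other cell types or cell states in the TGF-beta gene differences was not tested.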

How the data were processed

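RNA from 6 samples was hybridised to 1-colour Affymetrix arrays. Per the labels and the submitters' processing notes, the deposited log2 values were made by the authors with RMA (background correction, normalization between arrays, 1 value per probe set), and Partek is also named. The sources used here give no versions or settings. Of 41345 probe sets, 23521 carried 1 gene symbol, 1814 several and for 16010 no gene was given. The probe set with the highest mean over 6 arrays was kept per gene, giving 22180 genes. Each of the 10 members had 1 such probe set, and a further Ltbp2 probe set that names a second gene was left out. No values were rescaled or filtered, and 0 pairs of arrays were identical. Arrays give no counts, so their number limits the precision.

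Differences between the lines were tested by limma (version 3.58.1, under R 4.3.3; lmFit followed by eBayes, 2-sided), adjusted by Benjamini-Hochberg over all genes, and the code was tested on simulated data. No block was used, because the labels do not say that arrays with the same replicate number share anything. In a separate check, such arrays did not deviate together across genes (r 0.007, 0.016 and −0.004). Members and lists were chosen with earlier results of these data known, and the lists support nothing beyond their counts. The genes named are the members, Sox10, from each pathway list the 5 and from each marker list the 3 passing genes with the largest differences (or the 2 brightest where 0 passed), and the 3 genes most like Tgfb2. Other genes named were chosen after their values were seen. A few listed genes were not analysed here. As alternatives, arrays were centred on their medians or quantile-normalized, genes under the 40th percentile of probe sets were dropped, and further fits used other choices of probe set, eBayes with trend or robust, array weights, a replicate block, an adjusted p of 0.01 and each array left out. Promoter windows came from RefSeq, and protein sequences were not used here.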

Additional observations from a re-analysis of the deposited data

How the results depend on the processing

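The 6 genes that passed (Tgfb2, Tgfb3, Tgfbr1, Tgfbr2, Eng and Ltbp1) did so with the same sign under all 16 alternative fits. With single arrays left out, the number of the 10 genes that passed ran from 6 to 8, the number past 2-fold from 4 to 5, and their median difference from 0.87 (without wild-type replicate 2) to 1.02. At an adjusted p below 0.01, 5 of the 10 passed, without Ltbp1. With the replicate block, 6 passed and 5 were past 2-fold; the block moved 0 of the list counts by more than 1.5 times. The activin branch list had 7 passing genes with array weights and 2 to 6 with single arrays left out, against 4. The intracellular list had 4 at an adjusted p below 0.01 and 4 to 9 with single arrays left out, against 7. The list of activators ran from 10 to 13 and the target genes from 10 to 15 over all alternatives. The share of all genes that passed in each alternative is not given here. The counts under alternatives therefore cannot be set against that share. Ltbp2 differed by −0.02 without heterozygous replicate 1. With 3 arrays a line, the 95% intervals of the 4 genes that did not pass reach at most 0.47 from 0.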

Other observations

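Wild-type replicate 2 differed from the other wild-type arrays in several of these genes. It was lower by at least 0.5 in 3 of the 10 ligand, receptor and latency genes, Tgfb2 (1.22), Ltbp1 (1.26) and Tgfbr2 (0.66), and higher by that much in 0. Of all 22180 genes, 829 (3.74%) were lower and 609 higher by at least 0.5 in this array. Among target genes it was low in Postn, Tsc22d1 and Snai2 (3 of 24) and high in Bhlhe40 (0.66), and it was low in 2 of 21 activators and anchors, Mmp2 and Bmp1. The genes were chosen after their values were seen, and no test was made.

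Follistatin and periostin were the pathway genes most affected. Fst, the gene of the activin antagonist follistatin, had 7.98, 6.61 and 7.98 in the wild type and 7.003, 6.91 and 6.88 in the heterozygous line. Fst differed by −0.59 and did not pass (limma adjusted p 0.334), whereas without wild-type replicate 2 it differed by −1.05 (adjusted p 8.05e-05). Postn, the gene of the matrix protein periostin, had 8.86, 7.63 and 8.96 in the wild type and 9.67, 9.53 and 9.55 in the heterozygous line. Postn differed by 1.10 (adjusted p 0.058), and by 0.67 without wild-type replicate 2 (adjusted p 0.00113). Why this array differs was not tested.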
